A study of Rattus norvegicus and Mus musculus with 25 samples.

Results

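Reelin is a large secreted glycoprotein, and its addition to cultured neonatal rat ventricular cardiomyocytes for 48 h was compared with addition of phosphate-buffered saline (PBS). The comparison holds 4 of the 25 libraries of the series, 2 with Reelin and 2 with PBS, and was made over the 13459 genes that reached 1 CPM (reads of a gene per 1000000 reads) in at least 2 of those 4 libraries, out of 28909 rows. The series measured RNA from 16 rat and 9 mouse libraries in a study of the heart that also knocked down Vldlr or Thbs1 by siRNA and overexpressed Vldlr. All groups used here were heart ventricle cells of 1-day-old Sprague-Dawley (SD) rats, of no stated genotype change. The cells had been enriched for cardiomyocytes by removing those that attach early to plastic, and were kept in low-serum medium. The Reelin group received Reelin for 48 h, at a dose that the labels do not give, and the PBS group received PBS for 48 h. The group si-Vldlr received 50 nM of an siRNA against Vldlr for 60 h, si-Control_v received 50 nM of a control siRNA for 60 h, and Vldlr OE received the virus AAV9-cTnT-Vldlr, in which the cardiac troponin T promoter drives Vldlr, for 72 h. A second, separately normalised rat table holds si-Control_t and si-Thbs1, each at 50 nM for 60 h. Each of these groups has 2 libraries. The labels do not say whether the 2 came from separate isolations, so that p-values measure the spread between libraries, which may be technical.

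Reelin signals through the lipoprotein receptors Vldlr and Lrp8 (ApoER2). Receptor clustering lets Src-family kinases such as Fyn and Src phosphorylate the adaptor Dab1. Phosphorylated Dab1 recruits Crk proteins and the exchange factor Rapgef1, signals through PI3-kinase, Akt and Gsk3b, and binds the dynein regulator Pafah1b1 (Lis1). The pathway is best known for positioning neurons in the developing brain, and in the heart Reelin secreted by lymphatic endothelial cells is known to support cardiomyocyte proliferation and survival. Much of this pathway acts through phosphorylation, which transcript levels do not measure.

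The libraries differed little. The median absolute difference of a gene was 0.0864 and 0.0867 on the log2(CPM + 1) scale between Reelin replicate 2 and the 2 PBS libraries, 0.0917 between the PBS libraries, and 0.119 between the 2 Reelin libraries. Reelin replicate 1 therefore stood farther from its own replicate than the Reelin replicate 2 library stood from either PBS library. Mitochondrially encoded transcripts were also lowest in Reelin replicate 1, at 2.26% of its CPM against 4.09% to 4.40% in the other 3. The deposited CPM values carry no depth, so sequencing depth is unknown and no counting interval is given.

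Transcripts of the ligand and its receptors did not pass the test between Reelin and PBS. Reln, the gene of the ligand, was at 2.23 and 2.23 CPM in the PBS libraries and 3.16 and 2.38 CPM in the Reelin libraries. Its log2 fold change was 0.22 ± 0.42 (SE, n = 2 per group). Here and below, the SE pools the spread within all 5 groups of the table (10 libraries), not that of Reelin and PBS alone. In a fit of the 4 Reelin and PBS libraries alone, the SE of Reln was 0.17. Reln did not pass there either (adjusted p = 0.97 by limma with Benjamini-Hochberg adjustment). Both Reelin libraries were the higher ones, but only replicate 1 stood clear, and Reln ranged from 1.12 to 4.18 CPM in the 6 other libraries of the table. Added Reelin protein leaves no transcript, so these values describe the cells' own Reln. Vldlr, the receptor that the rest of the series perturbs, was at 371 and 348 CPM with PBS and 400 and 364 CPM with Reelin. The groups overlapped, and the log2 fold change was 0.09, with a 95% interval from -0.21 to 0.39. Lrp8, the other signalling receptor, was at 27.2 and 26.5 CPM with PBS and 26.4 and 25.8 CPM with Reelin, a log2 fold change of -0.04 ± 0.18 (SE) with both Reelin libraries just under both PBS libraries. Thbs1, which encodes the matrix protein thrombospondin-1, a ligand that can also bind these receptors, was at 2232 and 2258 CPM with PBS and 2638 and 2467 CPM with Reelin. Both Reelin libraries lay above both PBS libraries, and the log2 fold change of 0.18 ± 0.14 did not pass (adjusted p = 1.00 by limma with Benjamini-Hochberg adjustment). Itga3, an integrin subunit reported as a Reelin partner in the brain, was at 56.4 and 62.9 CPM with PBS and 66.4 and 63.9 CPM with Reelin. All 12 genes of the ligand and receptor list were measured, and 0 passed at an adjusted p under 0.05 (limma, Benjamini-Hochberg) or at an unadjusted p under 0.05. Over all genes tested, 0.0223% passed the adjusted threshold and 1.15% the unadjusted one.

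Of the 18 tested genes of the wider LDL receptor family and its regulators, 13 had a log2 fold change above 0 and 5 below 0. Lrp12, a receptor of that family, was at 29.7 and 34 CPM with PBS and 37.9 and 36.6 CPM with Reelin, with a log2 fold change of 0.22 and an unadjusted p of 0.0383. For Lrp12 both Reelin libraries lay above both PBS libraries, and 0 of the 18 genes passed after adjustment by limma with Benjamini-Hochberg.

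Inside the cell, Dab1, the adaptor that the pathway is built on, did not reach the filter in any of the 4 libraries. Its values were 0.110 and 0.0613 CPM with PBS and 0.236 and 0.105 CPM with Reelin, too low for a test. The related adaptor Dab2, which serves endocytosis of lipoprotein receptors, was at 83.8 and 96.1 CPM with PBS and 96.1 and 87.7 CPM with Reelin, with overlapping groups. Of 46 listed genes of the intracellular pathway, 41 were tested, 27 with a log2 fold change above 0 and 14 below 0, and their median was 0.04 against 0.02 over all genes tested. In 10 of the 41 both Reelin libraries were above both PBS libraries and in 6 both were below, which is 24.4% and 14.6% beside 19.8% and 13.1% of all genes tested. Under median-of-ratios scaling the counts were 7 above and 8 below, or 17.1% and 19.5% beside 16% and 16.3% of all genes, so the lean to higher values was not kept.

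Pik3cb, a catalytic subunit of PI3-kinase, was at 15.0 and 22.3 CPM with PBS and 23.4 and 23.8 CPM with Reelin, and its log2 fold change of 0.35 ± 0.16 came mainly from PBS replicate 1. Fyn, the kinase most tied to Dab1 phosphorylation, was at 61.9 and 56.0 CPM with PBS and 66.0 and 66.3 CPM with Reelin, a log2 fold change of 0.17. Both Reelin libraries were above both PBS libraries for Fyn, whereas the groups overlapped for Src, at 64.1 and 60.2 CPM with PBS and 69.4 and 62.9 CPM with Reelin. Further along the pathway the log2 fold changes were 0.14 for Rapgef1, 0.11 for Akt1, 0.06 for Gsk3b, 0.04 for Pafah1b1 and -0.02 for Crk. The Akt1 libraries did not overlap, at 283 and 288 CPM with PBS against 320 and 296 CPM with Reelin, and the other 4 genes overlapped. The plot of pathway genes by library shows the close spacing of the 4 points of most genes.

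**Figure D1:**
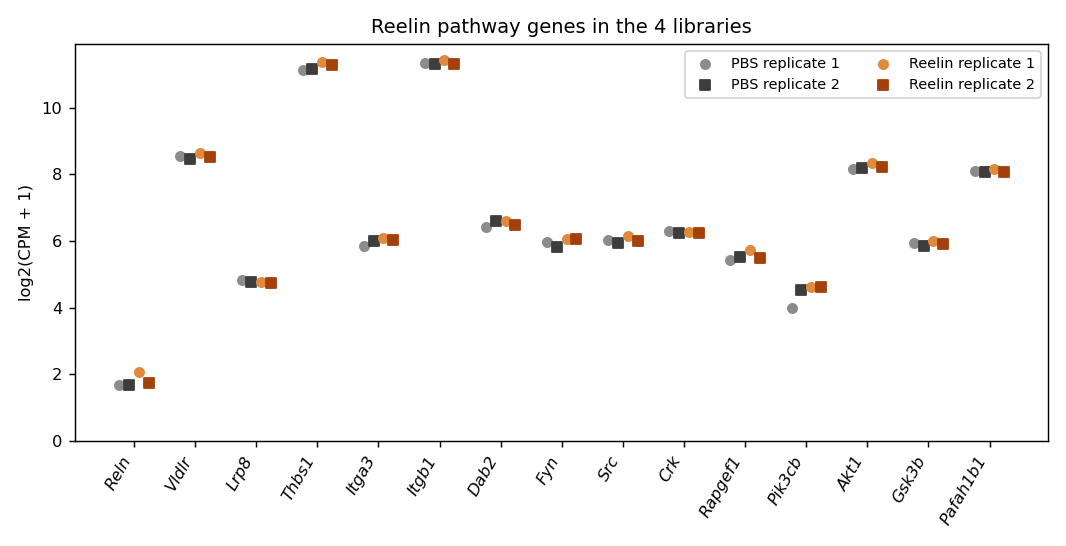
Level of 15 Reelin pathway genes, as log2(CPM + 1) on the y axis, with 1 point per library (PBS in grey, Reelin in orange, circles for replicate 1 and squares for replicate 2). The 4 points of a gene lie close together; Pik3cb has 1 PBS library at 15.0 CPM below the other 3, and Reln has 1 Reelin library at 3.16 CPM above the other 3.

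Over all genes, few differences passed. At an adjusted p under 0.05 (limma, Benjamini-Hochberg), 2 genes rose and 1 fell among 13459, or 0.0149% and 0.00743%. Without adjustment, 155 genes had a p under 0.05, which is 1.15% (97 higher, 0.721%, and 58 lower, 0.431%), fewer than the 673 that a uniform distribution of p-values would give. Without 1 of the 4 libraries in turn, 6 to 12 genes passed the adjusted threshold (9 without Reelin replicate 1, 7 without Reelin replicate 2, 6 without PBS replicate 1 and 12 without PBS replicate 2), the same 3 among them each time. Precision set a limit here: the median SE was 0.14 on the log2 scale and 97.2% of the genes had a 95% interval that lay within a 2-fold change in either direction. On this scale, log2(CPM + 1), fold changes of low genes are understated.

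**Figure D2:**
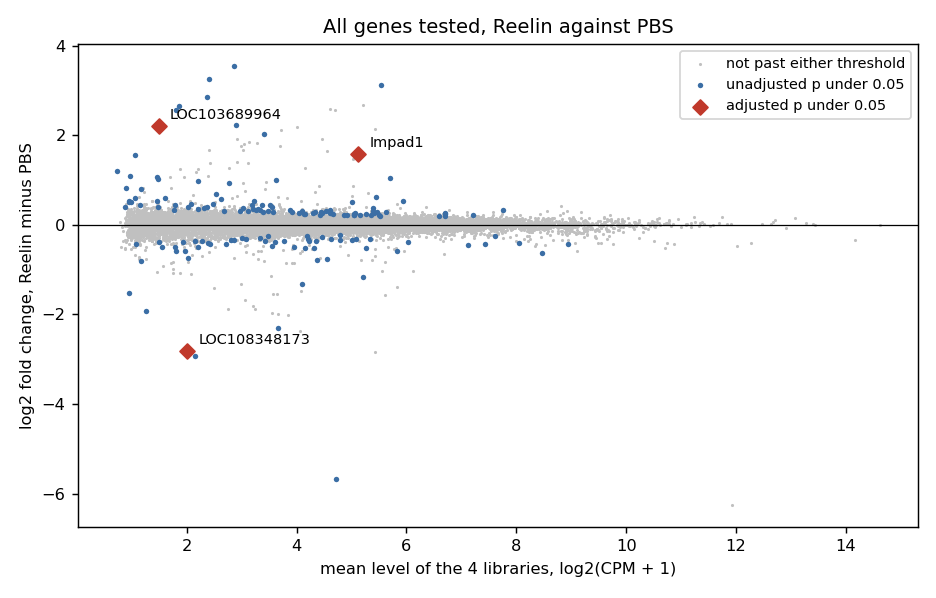
Log2 fold change of each of the 13459 genes tested (Reelin minus PBS, y axis) against its mean level in the 4 libraries (log2(CPM + 1), x axis), with genes at an unadjusted p under 0.05 in blue and the 3 genes past the adjusted threshold as red diamonds. Most genes lie in a narrow band around 0, and large log2 fold changes without a small p belong to genes that vary between libraries of 1 group.

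Impad1 (Bpnt2 in current RefSeq naming), a Golgi phosphatase that clears a by-product of sulfation, was at 17.3 and 15.7 CPM with PBS and 51.0 and 51.5 CPM with Reelin. The gene rose by 1.58 ± 0.09 on the log2 scale (SE, n = 2 per group; adjusted p = 0.000183 by limma with Benjamini-Hochberg adjustment), and the 2 groups lay far apart. In the 6 other libraries of the same table, none of which had received Reelin, Impad1 was at 49.1 to 58.5 CPM. The PBS libraries were thus the low ones of the 10. In the separate table, the control siRNA libraries held 14.7 and 52.2 CPM, and the si-Thbs1 libraries 16.8 and 16.7 CPM, so both levels also occurred within 1 control group.

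LOC103689964, an uncharacterised locus, was listed at 0 in both PBS libraries and at 3.66 and 3.55 CPM with Reelin (adjusted p = 0.00505 by limma with Benjamini-Hochberg adjustment). It was at 2.22 to 3.86 CPM in the 6 other libraries of the table. In the separate table this locus was at 2.87 and 2.35 CPM in si-Control_t and at 1.79 and 0 CPM in si-Thbs1. A value of 0 was thus not confined to PBS. LOC108348173 had values of 6.13 and 6.02 CPM in the PBS libraries and of 0 in both Reelin libraries (adjusted p = 0.000183 by the same test), and it was listed at 0 in the 6 other libraries of the table and the 4 of the separate table as well. In all 3 genes the Reelin libraries were at the level of the 6 other libraries of the table, and the PBS libraries stood apart.

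The largest differences in each direction were next examined among genes averaging 5 CPM or more in either group, with groups that did not overlap and an unadjusted p under 0.05. Predicted loci were left out, as were genes at 0 in 1 library and 5 CPM or more in the other library of a group. Impad1 is the only one of the genes so chosen that passed the adjusted threshold. Aldh18a1, an enzyme of proline synthesis, was at 29.1 and 37.2 CPM with PBS and 76.4 and 62.3 CPM with Reelin. Its log2 fold change was 1.05 ± 0.15, with an unadjusted p of 4.902e-05 and an adjusted p of 0.165 (limma, Benjamini-Hochberg). Both Reelin libraries were well above both PBS libraries, but Aldh18a1 ranged from 22.4 to 65.3 CPM in the 6 other libraries. Hira, a histone chaperone, was at 6.54 and 6.93 CPM with PBS and 22.5 and 9.09 CPM with Reelin, a log2 fold change of 0.99 carried mainly by Reelin replicate 1. Hira ranged from 12.1 to 25.0 CPM in the 6 other libraries. Reelin replicate 1 lay within that range, and both PBS libraries and Reelin replicate 2 lay under it. Arid1b, a subunit of the BAF chromatin remodelling complex, was at 23.5 and 44.6 CPM with PBS and 54.8 and 46.8 CPM with Reelin, where PBS replicate 2 lay next to Reelin replicate 2. Calcoco1, an autophagy receptor, was at 51.6 and 45.4 CPM with PBS and 79.9 and 63.2 CPM with Reelin. The log2 fold changes of the remaining 5, Arhgef37, Fam114a1l1, Fam50a, Alkbh4 and Inpp5d (the lipid phosphatase SHIP1 of blood cells), ran from 0.98 to 0.45.

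In the lower direction the first of these genes was Pigc, an enzyme of glycosylphosphatidylinositol anchor synthesis, at 20.6 and 26.2 CPM with PBS and 10.2 and 7.55 CPM with Reelin. Ogn, the small proteoglycan osteoglycin of the extracellular matrix, was at 49.7 and 51.3 CPM with PBS and 20.7 and 23.1 CPM with Reelin. The log2 fold change of Ogn was -1.17 ± 0.38, and its adjusted p was 1.00 in the fit of all 10 libraries and 0.00752 in a fit of the 4 Reelin and PBS libraries alone (both limma with Benjamini-Hochberg adjustment). Within si-Control_v, Ogn was at 18.0 and 50.3 CPM, a gap as wide as that between PBS and Reelin. Rnase4, a secreted ribonuclease, was at 67.5 and 65.7 CPM with PBS and 44.5 and 44.2 CPM with Reelin, and Rnf4, a ubiquitin ligase of SUMO-modified proteins, at 46.3 and 42.6 CPM with PBS and 31.1 and 30.2 CPM with Reelin. In both the groups stood apart, with log2 fold changes of -0.58 and -0.52 that did not pass after adjustment. Within si-Control_v, however, Rnase4 was at 58.1 and 38.0 CPM, and it ranged from 38.0 to 94.4 CPM in the 6 other libraries. Rnf4 ranged from 29.0 to 42.3 CPM in those 6. S100a4, a calcium-binding protein of motile cells, was at 573 and 543 CPM with PBS and 351 and 499 CPM with Reelin, and Mrpl14, Gemin7, Mipol1, Tmem241 and Rps21 completed the 10 with log2 fold changes from -0.52 to -0.42.

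**Figure D3:**
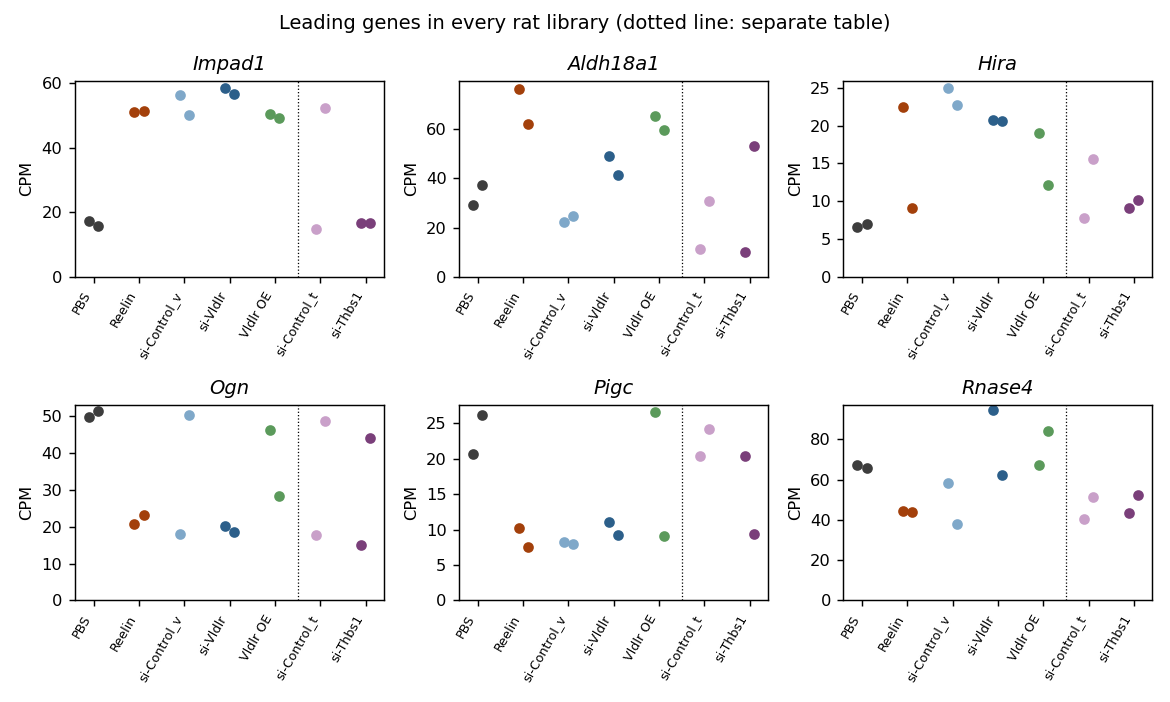
CPM (y axis, from 0) of 6 genes with large differences between Reelin and PBS, in every rat library with a matched label, 2 points per group; the groups right of the dotted line come from a separately normalised table. For Impad1, Ogn and Pigc the libraries fall near 2 levels, and 2 libraries of 1 group can lie at different levels, as for Ogn in si-Control_v at 18.0 and 50.3 CPM.

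When the fit held just these 4 libraries, 13 genes passed at an adjusted p under 0.05 (limma, Benjamini-Hochberg), or 0.0966%, and 390, or 2.9%, had an unadjusted p under 0.05. They include the 3 genes above, Ogn, the cyclin gene Ccnj, Fam122b, Tmem45a and 6 unnamed loci. Ccnj was listed at 0 in both PBS libraries and was at 5.27 and 5.30 CPM with Reelin. It was also listed at 0 in si-Control_v replicate 2 and was at 5.64 CPM in si-Control_v replicate 1, so a value of 0 occurred within a group too. Tmem45a was listed at 0 in both PBS libraries and was at 9.34 and 7.79 CPM with Reelin, and it was listed at 0 in si-Control_v replicate 1, si-Vldlr replicate 2 and Vldlr OE replicate 1. Of the 13, 5 were listed at 0 in 1 library and at 5 CPM or more in the other library of some group, against 0.49% of all genes tested.

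Among the proliferation lists, genes of mitosis leaned to higher values with Reelin. Of 58 tested genes of mitosis and cytokinesis, 48 had a log2 fold change above 0 and 10 below, with a median of 0.07, or 1.05-fold, against 58.6% above 0 and a median of 0.02 over all genes. Both Reelin libraries were above both PBS libraries in 23 of the 58 (39.7%, against 19.8% of all genes) and below both in 0 (13.1% of all genes). Under median-of-ratios scaling 43 were above 0 and 15 below, with 51.2% of all genes above 0. The groups then did not overlap in 22 on the higher side and 2 on the lower side. That is 37.9% and 3.45% beside 16% and 16.3% of all genes. By limma with Benjamini-Hochberg adjustment 0 of the 58 passed, and 1 of the 58 had an unadjusted p under 0.05. The direction was present in each Reelin library, with a median difference from the PBS mean of 0.11 in replicate 1 and 0.05 in replicate 2, and replicate 2 alone was above both PBS libraries for 33 of 58 genes (56.9%, against 33.7% of all genes).

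Espl1, the protease separase that opens the cohesin ring at anaphase, was the gene with the unadjusted p under 0.05, at 17.6 and 17.0 CPM with PBS and 21.3 and 21.2 CPM with Reelin (log2 fold change 0.28 ± 0.10). The groups stood clear of each other by more than the gap within either. Cenpe, a kinetochore motor, was at 33.8 and 34.5 CPM with PBS and 42.6 and 39.2 CPM with Reelin, and Ndc80, which anchors microtubules at the kinetochore, at 22.5 and 23.9 CPM with PBS and 26.6 and 26 CPM with Reelin. Top2a, the topoisomerase of dividing cells, was at 99.5 and 98.4 CPM with PBS and 117 and 103 CPM with Reelin. In each of these 3 genes the Reelin libraries were both the higher ones, with log2 fold changes of 0.25, 0.17 and 0.15 and unadjusted p from 0.0864 to 0.131.

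DNA replication genes did not share that direction: 24 of 51 were above 0 and 27 below, with a median of -0.01. Among them Uhrf1, which maintains DNA methylation at replication, was at 29.4 and 30.2 CPM with PBS and 31.7 and 36.2 CPM with Reelin. Cdt1, the licensing factor of replication origins, was at 11.9 and 14.3 CPM with PBS and 9.98 and 12.2 CPM with Reelin. The first did not overlap and the second did. Of 26 genes of G1 cyclins, their kinases and E2F factors, 14 were above 0 and 12 below. Rbl1, the pocket protein p107 that restrains E2F, was at 9.82 and 8.47 CPM with PBS and 12.7 and 11.9 CPM with Reelin, with a log2 fold change of 0.39 ± 0.15 and an unadjusted p of 0.0265. Ccnd2, a D-type cyclin, was at 105 and 109 CPM with PBS and 134 and 112 CPM with Reelin. Cell cycle inhibitors and p53 targets were split 13 and 13, and the largest value among them was that of Cdkn2b, an inhibitor of cyclin D kinases, at 23.8 and 21.1 CPM with PBS and 21.1 and 59.2 CPM with Reelin. That difference lay in Reelin replicate 2 alone, and without it the log2 fold change of Cdkn2b was -0.08.

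Knockdown of the receptor was a comparison with its own controls, and the same mitotic genes had lower values there. With si-Vldlr, Vldlr was at 183 and 171 CPM against 252 and 257 CPM in si-Control_v, a log2 fold change of -0.52. Of the 58 mitosis genes, 56 were lower with si-Vldlr (54% of all genes were) and 51 did not overlap in that direction (27.5% of all genes), with a median log2 fold change of -0.34. The difference between the responses to Reelin and to si-Vldlr was tested directly in the same limma fit. At an unadjusted p under 0.05, 27 of 58 genes differed, all with the higher response to Reelin. That is 46.6% against 3.74% of all genes in that direction and 6.08% in either. Most of this contrast lay on the si-Vldlr side, where the median was -0.34 against 0.07 with Reelin. For Reelin against PBS, 1 of the 58 had an unadjusted p under 0.05 by limma. After Benjamini-Hochberg adjustment over all genes by limma, 0 of the 58 passed. The count of 27 depended on single libraries: it was 14 without Reelin replicate 1, 16 without PBS replicate 1, 14 without PBS replicate 2, 14 without si-Vldlr replicate 1 and 12 without si-Control_v replicate 1.

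Espl1 was at 23.6 and 23.9 CPM in si-Control_v and 18.1 and 16.2 CPM in si-Vldlr, and its response differed between Reelin and si-Vldlr by 0.73 ± 0.14 on the log2 scale (unadjusted p = 0.000635, adjusted p = 0.611 by limma with Benjamini-Hochberg adjustment). The PBS libraries, at 17.6 and 17.0 CPM, were at the level of si-Vldlr, and the Reelin libraries lay between them and si-Control_v. Ndc80 and Top2a differed by 0.56 and 0.48 in the same direction. The time and the handling of the 2 experiments differ, 48 h after protein addition and 60 h after transfection, and cannot be told apart from the treatments in this contrast. Vldlr itself differed by 0.61 ± 0.19 (unadjusted p = 0.00974, adjusted p = 0.757 by limma with Benjamini-Hochberg adjustment). As the target of the siRNA, Vldlr was lowered by design on 1 side of this contrast. Its log2 fold change was -0.52 with si-Vldlr and 0.09 with Reelin. Interferon response genes were split with Reelin, 20 of 45 above 0, and were all above 0 with si-Vldlr, with medians of -0.01 and 0.50. The first was -0.102 without PBS replicate 1 and 0.092 without PBS replicate 2.

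Survival genes were divided evenly, with 16 of 32 above 0. Bik, a pro-apoptotic BH3-only protein, was at 2.07 and 1.78 CPM with PBS and 2.87 and 3.13 CPM with Reelin (log2 fold change 0.45 ± 0.18, unadjusted p = 0.0286). Bcl2l11 (Bim), of the same class, was at 11.3 and 12.5 CPM with PBS and 16.3 and 13.7 CPM with Reelin. For both, the Reelin libraries were the higher ones, and neither passed after adjustment. Among the 20 genes that respond to FoxO factors or to insulin and Akt, 13 were above 0, with Insr, the insulin receptor, at 72.4 and 77.0 CPM with PBS and 86.0 and 83.2 CPM with Reelin. The 29 genes of neuregulin, ErbB and IGF signalling, a growth input of cardiomyocytes, were split 14 and 15.

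Of 27 genes of the Hippo pathway, which restrains cardiomyocyte division through the kinases Stk3, Stk4, Lats1 and Lats2, 23 were above 0 and 4 below, with a median of 0.05. Both Reelin libraries were above both PBS libraries in 8 of the 27 (19.8% of all genes) and below in 0 (13.1% of all genes). Stk4 (Mst1) was at 36.8 and 38.7 CPM with PBS and 49.1 and 42.1 CPM with Reelin, with a log2 fold change of 0.26 ± 0.10 and an unadjusted p of 0.0231. Lats2 was at 142 and 135 CPM with PBS and 169 and 138 CPM with Reelin, overlapping. The median of the Hippo list was 0.09 in Reelin replicate 1 and 0.01 in replicate 2, so replicate 1 held most of it. Immediate early genes and feedback genes of MAPK signalling were 15 above 0 and 22 below, and 5 did not overlap in each direction. Dusp2, with the smallest p of that list, was at 1.91 and 2.16 CPM with PBS and 2.85 and 2.43 CPM with Reelin. Both Reelin libraries of Dusp2 were the higher ones, with a log2 fold change of 0.26. Junb, an AP-1 subunit, was at 321 and 305 CPM with PBS and 276 and 296 CPM with Reelin, both Reelin libraries the lower ones, with a log2 fold change of -0.13.

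Genes of the contractile cell showed small differences. Of 28 sarcomere and Z-disc genes, 20 were above 0, with a median of 0.03 and 0 past the adjusted threshold of limma with Benjamini-Hochberg (0 also at an unadjusted p under 0.05). Without PBS replicate 1 that median was -0.013, and under median-of-ratios scaling it was 0.0048, with 16 genes above 0 and 12 below. Ldb3, a Z-disc scaffold, was at 380 and 376 CPM with PBS and 662 and 387 CPM with Reelin, where only Reelin replicate 1 stood out. Myom2, an M-band protein, was at 190 and 187 CPM with PBS and 254 and 218 CPM with Reelin, with both Reelin libraries above. Myh7, the slow myosin heavy chain, was at 7706 and 8461 CPM with PBS and 9427 and 8657 CPM with Reelin, and Nppb, the natriuretic peptide BNP, at 1056 and 1015 CPM with PBS and 847 and 1003 CPM with Reelin. The Myh7 libraries were higher and the Nppb libraries lower with Reelin, without overlap, and neither difference passed the test.

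Calcium handling and ion channel genes were above 0 in 29 of 34 cases, with a median of 0.08. In that direction 7 of the 34 did not overlap, a share close to the 19.8% of all genes, and 0 did in the other (13.1% of all genes). Gja5, the gap junction protein connexin 40, was at 44.5 and 48.4 CPM with PBS and 58.0 and 49.8 CPM with Reelin. Both Reelin libraries of Gja5 lay above both PBS libraries, with a log2 fold change of 0.21 ± 0.11 that did not pass the test. The list's median was 0.14 in Reelin replicate 1 and 0.02 in replicate 2, so that 1 library held most of the difference. Cardiac transcription factors were above 0 in 22 of 30 cases, with Myocd, the coactivator myocardin, at 43.1 and 42.7 CPM with PBS and 51.3 and 47.3 CPM with Reelin.

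Of all lists, the 13 mitochondrially encoded transcripts had the median farthest from 0, and it came from 1 library. All 13 had a log2 fold change below 0, with a median of -0.40, which was -0.90 in Reelin replicate 1 and 0.05 in Reelin replicate 2 relative to the PBS mean. Mt-nd1, a subunit of complex I, was at 1881 and 1922 CPM with PBS and 890 and 1979 CPM with Reelin, and Mt-co2, a subunit of cytochrome oxidase, at 638 and 616 CPM with PBS and 261 and 669 CPM with Reelin. In both, Reelin replicate 1 was the lowest library and Reelin replicate 2 the highest. As a share of CPM the 13 transcripts made up 4.09% and 4.14% with PBS and 2.26% and 4.40% with Reelin, a difference of -0.785 percentage points (exact permutation p = 1.00, two-sided; the smallest p that 2 against 2 allows is 0.333). Without Reelin replicate 1 the difference was 0.285. Within si-Control_v the share was 4.32% and 6.50%, a spread of the same order.

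Nuclear genes for the respiratory chain were below 0 in 52 of 60 cases, with a median of -0.07. They did not overlap in 25 of 60 on the lower side (13.1% of all genes) and in 1 on the higher side. Their direction was shared by both Reelin libraries, at -0.12 and -0.04, and 38 of 60 lay below both PBS libraries in Reelin replicate 2 alone (31.2% of all genes). That share in replicate 2 was not particular to this list. It was 63.6% for tricarboxylic acid cycle genes and 64.3% for glycolysis genes, whose replicate 1 medians were above 0 (0.06 and 0.12). Other lists had lower shares, such as 17.2% of mitosis genes. Atp5pb, a stator subunit of ATP synthase, was at 164 and 161 CPM with PBS and 122 and 153 CPM with Reelin, and Cox7c, a small subunit of cytochrome oxidase, at 398 and 362 CPM with PBS and 282 and 348 CPM with Reelin. In both genes Reelin replicate 1 was the lowest library and Reelin replicate 2 lay between it and PBS. By limma with Benjamini-Hochberg adjustment 0 of 60 passed, and 0 had an unadjusted p under 0.05.

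Cytosolic ribosomal protein genes also shared a direction. Of 61 tested, 56 were below 0 and 5 above, with a median of -0.14, or 0.909-fold. In 39 of 61 both Reelin libraries were below both PBS libraries (13.1% of all genes) and in 0 above (19.8% of all genes). The summed level was 38024 and 37544 CPM with PBS and 32849 and 36880 CPM with Reelin, so both Reelin libraries were lower and replicate 1 by far the more so. Reelin replicate 2 alone was below both PBS libraries for 44 of the 61 genes (31.2% of all genes), with a median difference of -0.05 against -0.22 in replicate 1. Rps21 was at 202 and 189 CPM with PBS and 136 and 158 CPM with Reelin (log2 fold change -0.42 ± 0.17, unadjusted p = 0.0389), and it was the only 1 of the 61 with an unadjusted p under 0.05; 0 passed after adjustment by limma with Benjamini-Hochberg. Rps14 was at 607 and 603 CPM with PBS and 375 and 566 CPM with Reelin, and Rps10 at 337 and 323 CPM with PBS and 215 and 309 CPM with Reelin. In these 2 genes Reelin replicate 1 was far below the other 3 libraries. With si-Vldlr, 53 of the 61 were above 0, with a median of 0.07, beside 6186 of all 13459 genes tested. Ribosomal proteins have many processed pseudogenes, so reads may be split between copies.

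**Figure D4:**
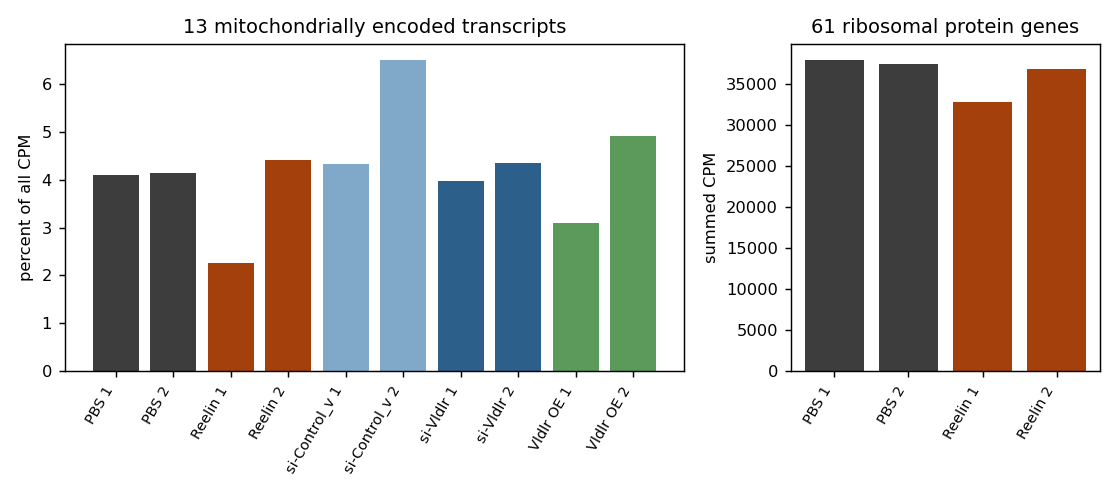
Left, the 13 mitochondrially encoded transcripts as a percent of all CPM in each of the 10 libraries; right, the summed CPM of 61 cytosolic ribosomal protein genes in the PBS and Reelin libraries (bars from 0, 1 bar per library). Reelin replicate 1 has the lowest bar in both panels, at 2.26% and 32849 CPM, while Reelin replicate 2 is at 4.40% and 36880 CPM, next to the PBS libraries.

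Metabolic lists were close to the median of all genes. Sterol and fatty acid synthesis genes were above 0 in 33 of 41 cases, with a median of 0.04. It was 0.05 in each Reelin library, but 0.082 without PBS replicate 1 and -0.007 without PBS replicate 2. Srebf2, the master regulator of sterol synthesis, was at 146 and 150 CPM with PBS and 168 and 155 CPM with Reelin, and Fasn, the fatty acid synthase, at 307 and 305 CPM with PBS and 352 and 334 CPM with Reelin. Both genes had the 2 Reelin libraries above the 2 PBS libraries, with log2 fold changes of 0.12 and 0.16. Of 35 fatty acid oxidation genes, 22 were above 0, and Acot2, a mitochondrial acyl-CoA thioesterase, was at 19.2 and 20.0 CPM with PBS and 15.0 and 16.1 CPM with Reelin (unadjusted p = 0.0488). Its cytosolic relative Acot1, a near-identical copy whose reads may be split between the 2 genes, was at 0.758 and 1.48 CPM with PBS and 2.33 and 1.79 CPM with Reelin, in the opposite direction. Glycolysis genes were above the PBS mean by a median of 0.12 in Reelin replicate 1 and below it by -0.07 in replicate 2, without a common direction.

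Among secreted and inflammatory genes, the interferon list had 25 of 45 genes below 0 and the NF-kappaB list 19 of 34. Il1b, the cytokine interleukin-1 beta, was at 5.32 and 5.26 CPM with PBS and 5.89 and 8.6 CPM with Reelin, and Ccl2, a chemokine for monocytes, at 225 and 165 CPM with PBS and 156 and 166 CPM with Reelin. The 2 groups did not overlap for Il1b and did for Ccl2, where PBS replicate 1 was high. Of 28 integrin and adhesion genes, 24 were above 0 (58.6% of all genes) with a median of 0.07, and 10 of 28 did not overlap in that direction (19.8% of all genes). Vcl, the focal adhesion protein vinculin, was at 742 and 724 CPM with PBS and 852 and 774 CPM with Reelin. Matrix genes and TGF-beta targets were above 0 in 36 of 53 cases (58.6% of all genes), with a median of 0.02. That median was 0.07 in Reelin replicate 1 and -0.015 in replicate 2, where 34 of the 53 lay below the PBS mean. Ltbp1, which stores latent TGF-beta in the matrix, was at 145 and 144 CPM with PBS and 169 and 153 CPM with Reelin. Both Vcl and Ltbp1 were higher in both Reelin libraries, by 0.15 on the log2 scale in each case. Genes of the unfolded protein response were split 20 and 17, and hypoxia and oxidative stress genes 15 and 16.

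**Figure D5:**
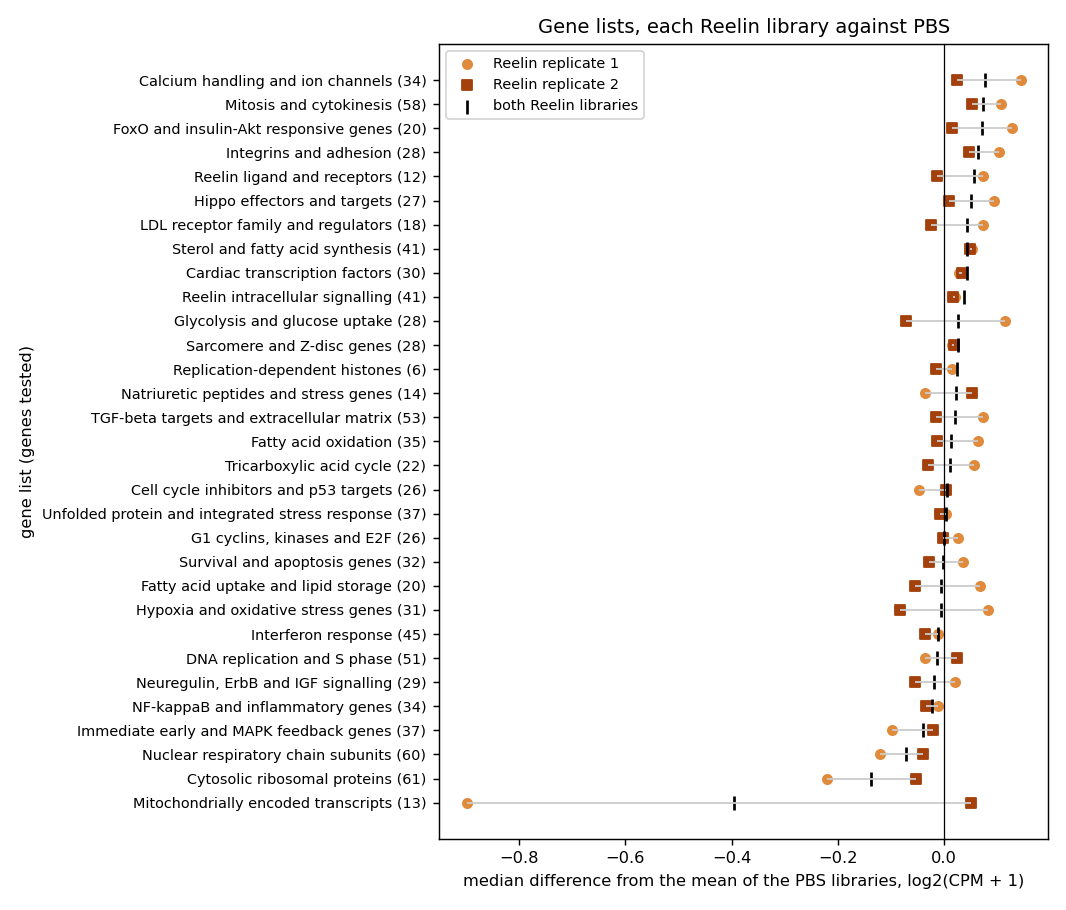
Median difference of each gene list from the mean of the PBS libraries (x axis, log2(CPM + 1)), for Reelin replicate 1 (circles), Reelin replicate 2 (squares) and both together (black ticks), with the number of genes tested in brackets. Most lists lie within 0.1 of 0, and the mitochondrially encoded transcripts span from -0.90 in replicate 1 to 0.05 in replicate 2.

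Markers of the cell types in culture were checked in the same libraries. Cardiomyocyte markers summed to 28046 and 29292 CPM with PBS and 30756 and 29298 CPM with Reelin, and 12 of 13 were tested, with Tnni3, Actn2 and Ryr2 all present. Fibroblast markers were also abundant, at 43377 to 46632 CPM, led by collagens, so the cultures were not cardiomyocytes alone. Endothelial markers summed to 64.3 to 72.5 CPM with Robo4 at 0 in all 4 libraries, epicardial markers to 246 to 261 CPM, and erythroid markers to 1.35 to 2.21 CPM with Hbb and Alas2 at 0. Smooth muscle and pericyte markers summed to 5195 to 5502 CPM, neuronal and Schwann cell markers to 262 to 279 CPM, and lymphatic endothelial markers, Reln among them, to 165 to 185 CPM. In bulk RNA, fewer cells of a type and less RNA per cell cannot be told apart.

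Macrophage markers summed to 995 and 1061 CPM with PBS and 1123 and 1190 CPM with Reelin. Both Reelin libraries were the higher ones, 7 of 9 tested markers were above 0, and 5 of 9 did not overlap in that direction (19.8% of all genes), with Cd163 at 0 throughout. Adgre1 (F4/80) was at 69.2 and 69.8 CPM with PBS and 83.8 and 102 CPM with Reelin, and Csf1r, the receptor of macrophage growth factor, at 43.7 and 44.0 CPM with PBS and 54.5 and 56.6 CPM with Reelin. The log2 fold changes of 0.41 ± 0.28 and 0.33 ± 0.27 did not pass (both adjusted p = 1.00 by limma with Benjamini-Hochberg adjustment). Il1b and Inpp5d, which blood cells express, were higher in the same libraries, and the part of macrophages in those values was not tested. Of 10 epicardial markers, 6 were below 0 and 4 above, with a median of -0.04 and log2 fold changes from -0.179 to 0.188. On the lower side 4 did not overlap (13.1% of all genes), and on the higher side 0 (19.8% of all genes). Among the lower ones, Wt1 was at 12.6 and 12.1 CPM with PBS and 10.7 and 10.8 CPM with Reelin. Msln was at 74.5 and 77.9 CPM with PBS and 69.1 and 69.4 CPM with Reelin. Both genes had groups that did not overlap, with log2 fold changes of -0.18 and -0.14 that did not pass.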

How the data were processed

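RNA-seq of cultured rat ventricular cardiomyocytes was analysed from the tables the authors deposited, which hold CPM (reads of a gene scaled to a total of 1000000) per gene and library. Per the submitters' processing notes, HISAT2 2.1.0, StringTie 1.3.4 and edgeR 3.20.9 were used, and rn6 is named among the builds; their settings are not given in the sources used here. Each library's CPM adds up to about 1000000, so depth is unknown and no test on counts was made. Names that occur more than once or that a spreadsheet had turned into dates were left out (25 rows), and 2 columns whose names match no label were not used. Groups were taken from the labels. Genes with at least 1 CPM in 2 of the 4 Reelin and PBS libraries were kept.

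From these values log2(CPM + 1) was computed and fitted in R 4.3.3 by limma 3.58.1, letting the prior variance follow the mean level, with 1 mean per group over the 10 libraries of the table (5 groups of 2), with Benjamini-Hochberg adjustment over all 13459 genes and a threshold of 0.05. SE and 95% intervals come from that fit. The response to Reelin minus that to si-Vldlr was a contrast in the same fit. The share of mitochondrially encoded transcripts was compared by an exact permutation test. Gene lists are described by counts and medians only. A group was said not to overlap when both Reelin libraries were above, or both below, both PBS libraries. The code was tested on simulated data.

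The genes named are those of the Reelin pathway, those past the threshold in either fit, the 10 largest differences per direction among genes that averaged 5 CPM or more in either group, did not overlap and had an unadjusted p under 0.05 (leaving out predicted loci and genes at 0 in 1 library and 5 CPM or more in the other of a group), and up to 4 members of each list with the smallest p. The lists, their members and the comparisons were chosen with earlier results of these data known. Alternatives were pseudocounts of 0.5 and 5, other filters and scalings, a robust prior, a replicate block, the 4 libraries alone, and leaving out each library. Same-numbered Reelin and PBS libraries did not deviate together (r = -0.0709 across 13459 genes, which are not independent), so the numbers were not taken to pair them.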

Additional observations from a re-analysis of the deposited data

Results flagged for a closer look

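For 3 genes the response to Reelin differed from the response to si-Vldlr at an adjusted p under 0.05 by limma with Benjamini-Hochberg adjustment (0.0223% of 13459 genes; 818 genes, or 6.08%, did so at an unadjusted p under 0.05). Impad1 differed by 1.47 on the log2(CPM + 1) scale. LOC108348173 differed by -2.82, with values above 0 in the PBS libraries alone. LOC103694902 differed by 5.48: it was at 31.6 and 35.2 CPM in si-Control_v, listed at 0 in both si-Vldlr libraries, at 35.2 and 16.2 CPM with PBS and at 30.1 and 32.9 CPM with Reelin. It was also listed at 0 in 1 of the 2 Vldlr OE libraries and was at 0.024 CPM in the other, and at 39.6 and 0 CPM in the si-Control_t libraries of the separate table, so that a value of 0 occurred within a control group.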

How the results depend on the processing

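Impad1 kept its direction and its adjusted p under 0.05 (limma, Benjamini-Hochberg) in every setting run, and all 3 genes past the threshold did so except where a filter removed them and in 1 fit with the block. The number past the threshold was 1 with a mean of at least 5 CPM, 1 among genes above 0 in all 10 libraries (chosen after seeing the data), and 13 with the 4 libraries alone. Genes at an unadjusted p under 0.05 numbered 488 without a filter and 390 with the 4 libraries alone. Genes whose response differed from that to si-Vldlr numbered 5 with a pseudocount of 0.5, 5 with a robust prior and 1 among genes above 0 in all 10 libraries. With the replicate block, 6 genes passed the threshold, 434 had an unadjusted p under 0.05 and 10 differed from si-Vldlr; with the replicate block and the 4 libraries alone, the numbers were 9 and 452. The cause of these shifts was not tested. The median of the intracellular Reelin list was 0.0172 under median-of-ratios scaling and 0.0265 when rescaled without mitochondrially encoded transcripts.

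Without single libraries, there were 6 to 12 genes past the threshold (9 without Reelin replicate 1, 7 without Reelin replicate 2, 6 without PBS replicate 1, 12 without PBS replicate 2), 115 to 367 at an unadjusted p under 0.05 (367 without Reelin replicate 2) and 7 to 13 that differed from si-Vldlr, more than 3 whichever of the 8 libraries of that contrast was left out, the lone library being assumed to vary like the other groups. List medians ran from 0.0175 to 0.0522 for intracellular Reelin genes, 0.0537 to 0.108 for mitosis, -0.0464 to 0.0247 for DNA replication, -0.22 to -0.05 for ribosomal proteins and -0.90 to 0.0514 for mitochondrially encoded transcripts, whose share differed by -1.86 to 0.285 percentage points. Log2 fold changes that crossed 0 ran from -0.0649 to 0.13 for Dab2, -0.0233 to 0.0942 for Pafah1b1, -0.0411 to 0.0053 for Crk, -0.0084 to 0.28 for Lats2, -0.0848 to 1.36 for Cdkn2b, -1.26 to 0.0932 for Mt-co2, -1.0946 to 0.0572 for Mt-nd1 and -0.16 to 0.92 for LOC103694902. Depth, which the CPM values do not carry, limits what the low genes can show.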
